A study of Mus musculus with 16 samples.

Results

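The genes described here encode the subunits of oxidative phosphorylation, the 5 enzyme complexes of the inner mitochondrial membrane, and some assembly factors of complex I. Members were taken by gene symbol alone, as every array probe set that named a single gene whose symbol began with Nduf, Uqcr or Atp5, was one of Sdha to Sdhd, or began with Cox and a digit between 4 and 8 followed by a letter. This gave 113 probe sets naming 89 genes, of 21640 probe sets naming 1 gene each and 19937 genes in all, and of 34760 probe sets in the whole table. Of the 113, 7 read assembly factors of complex I (Ndufaf genes), which are counted below among the subunit genes. A further 6 probe sets that named a member symbol together with another gene were left out. Of the 89 genes, 17 were read by more than 1 probe set, with 41 probe sets between them.

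The data came from whole mouse hearts on a C57BL/6 background, each hybridised to its own Affymetrix Mouse Gene 1.0 ST array, with 4 hearts in each of 4 groups. These were Chd7fl/fl;Mesp1-Cre hearts ("mutant") at embryonic day E13.5, control hearts at E13.5, mutant hearts at E11.5 and control hearts at E11.5. Litters are not given in the sources used here, so the tests measure the spread between single hearts. CHD7 is an ATP-dependent chromatin remodeller, and Mesp1-Cre deletes the floxed allele in the anterior mesoderm that gives rise to the myocardium and endocardium, so that cells of other origin in a mutant heart keep the gene. The control hearts are labelled wild type, but the cross on the labels, Chd7fl/+;Mesp1-Cre with Chd7fl/fl, cannot give an embryo without a floxed allele, while the study's methods and legends name Chd7+/+;Mesp1-Cre, so the exact control genotype is not settled here.

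The respiratory chain passes electrons from NADH through complex I (most Nduf genes) and from succinate through complex II (Sdh genes, also part of the citric acid cycle) to complex III (Uqcr genes) and on to oxygen at complex IV, cytochrome c oxidase (Cox genes). Members were assigned to complexes by symbol alone, so Ndufa4 and Ndufa4l2 count with complex I here, whichever complex their products join. Proton pumping by complexes I, III and IV drives ATP synthesis by complex V (Atp5 genes). Several subunits of complex IV exist as a general isoform and an isoform of heart and skeletal muscle, among them Cox6a1 and Cox6a2, Cox7a2 and Cox7a1, and Cox8a and Cox8b, and the embryonic heart is known to raise its mitochondrial capacity as it matures.

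Chd7 itself was lower in every mutant heart than in every control heart of the same stage, with log2 signals of 8.88 to 9.07 in mutant hearts against 9.83 to 10.30 in control hearts at E13.5, and 9.16 to 9.73 in mutant hearts against 10.64 to 10.89 in control hearts at E11.5. All 8 cardiomyocyte markers were measured and none was called in any comparison. Of all probe sets naming 1 gene, 0.0139% were called higher and 0.0416% lower between genotypes at E13.5, and 0.097% and 0.3% at E11.5. Between stages 10.6% and 7.46% were in mutant and 10.2% and 7.48% in control hearts. The lack of calls between genotypes thus says little about composition. By stage, Nkx2-5 gave 0.61 in mutant and 0.56 in control hearts as deposited, and 0.40 and 0.34 after quantile normalisation. Summed linear signals of the 8 were 58835 to 62832 in mutant hearts and 61098 to 64424 in control hearts at E13.5. At E11.5 they were 47905 to 54010.1 in mutant hearts and 49543 to 52786 in control hearts. Y-linked genes were high in 1 of 4 mutant and 2 of 4 control hearts at E13.5, and in 2 of 4 mutant and 4 of 4 control hearts at E11.5. One heart, mutant E11.5 replicate 4, had a median log2 excess over control of 1.01 across 21 genes known to be induced by hypoxia, where the remaining mutant hearts at E11.5 had 0.05 to 0.20. In RNA of a whole heart, fewer cells of a type and less RNA per cell cannot be told apart.

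Sequence upstream of the genes was taken from RefSeq (GRCm38.p6) for 73 of the 89 genes, in 78 entries. Printed here are 4 stretches of 250 bases that end just before the annotated start: that of Cox8b, the only member called between mutant and control hearts, that of Cox8a, which encodes the general isoform of the same subunit, and those of Ndufs6 and Uqcrc1, genes of complexes I and III higher at E13.5 in both genotypes, with and without a motif searched here. The first 3 lie at chr7:140900447-140900696, chr19:7217617-7217866 and chr13:73328483-73328732 on the minus strand, and that of Uqcrc1 at chr9:108936398-108936647 on the plus strand. Capitals mark matches on either strand to CAGCTG (an E-box) in Cox8b and to the nuclear respiratory factor 1 motif in Ndufs6.
Cox8b: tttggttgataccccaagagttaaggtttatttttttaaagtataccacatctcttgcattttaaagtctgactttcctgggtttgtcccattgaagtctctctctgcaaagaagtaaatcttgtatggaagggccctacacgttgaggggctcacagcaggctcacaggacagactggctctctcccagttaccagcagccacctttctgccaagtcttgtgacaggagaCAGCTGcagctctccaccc
Cox8a: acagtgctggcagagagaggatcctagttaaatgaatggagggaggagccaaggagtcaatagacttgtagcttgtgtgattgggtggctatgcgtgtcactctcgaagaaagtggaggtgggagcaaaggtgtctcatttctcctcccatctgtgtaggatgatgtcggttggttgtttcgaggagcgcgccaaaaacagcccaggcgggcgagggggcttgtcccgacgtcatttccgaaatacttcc
Ndufs6: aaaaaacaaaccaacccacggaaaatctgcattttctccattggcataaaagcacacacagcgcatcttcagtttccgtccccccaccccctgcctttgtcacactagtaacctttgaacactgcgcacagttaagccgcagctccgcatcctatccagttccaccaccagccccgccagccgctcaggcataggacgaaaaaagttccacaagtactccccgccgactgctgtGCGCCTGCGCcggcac
Uqcrc1: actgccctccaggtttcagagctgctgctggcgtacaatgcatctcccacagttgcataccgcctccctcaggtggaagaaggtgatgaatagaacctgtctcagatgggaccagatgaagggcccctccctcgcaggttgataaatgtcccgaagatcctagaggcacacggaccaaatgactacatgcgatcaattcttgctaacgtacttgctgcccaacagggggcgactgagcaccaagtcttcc

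Cox8b holds 1 CAGCTG, which begins 19 bases before the start, and 1 CG dinucleotide in the 250 bases. Cox8a holds 11 CG dinucleotides and none of the motifs searched. Other forms of the E-box were not searched, so the genes are not compared for E-boxes in general. Ndufs6 holds 1 nuclear respiratory factor 1 motif, which begins 16 bases before the start and in which any base may stand just before TGCGC, and 14 CG dinucleotides, and Uqcrc1 holds 8 CG dinucleotides and none of the motifs. Of the 11 promoter entries of genes called higher at E13.5 in both genotypes, 3 held the nuclear respiratory factor 1 motif, those of Atp5c1, Atp5g2 and Ndufs6. Of the 6 entries of genes called lower in both, 1 held it, that of Atp5k. Other probe sets of Atp5g2 were called lower in both genotypes, so its place among the higher genes is uncertain. Over the 78 member entries, the nuclear respiratory factor 1 motif was found in 17.9%, against 3.74% of all 32851 promoter entries, and CCGGAA, the core bound by ETS factors, in 26.9% against 12%. The other letters searched were CAGCTG in 7.69% of member entries against 13% of all, TATAAA in 10.3% against 12.4%, and AAGGTCA, the half-site of the oestrogen-related receptors, in 5.13% against 4.08%. The median count of CG dinucleotides was 14.5 in member entries against 6.0 in all entries. These are matches of letters only and were not set against binding.

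Between mutant and control hearts almost all subunit genes stayed close together. A probe set was called where limma, fitted to all 34760 probe sets, gave an adjusted p under 0.05 and a log2 fold change over 0.5 in size. At E13.5 none of the 113 members was called, where 0.0139% of all probe sets naming 1 gene were called higher and 0.0416% lower, and 4 members had an unadjusted p under 0.05. At E11.5 1 member was called, Cox8b, which was lower, where 0.097% of all probe sets naming 1 gene were called higher and 0.3% lower, and 6 members had an unadjusted p under 0.05. The median log2 fold change of the members was 0.06 at E13.5 and 0.03 at E11.5, against 0.00 over all probe sets naming 1 gene at each stage.

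The members were measured closely enough to bound most effects. The log2 fold change lay within 0.25 of zero for 105 of 113 members at E13.5 and for 103 at E11.5, and its whole 95% interval lay within 0.5 of zero for 93 members at E13.5 and for 96 at E11.5. Taken heart by heart, the median deviation of the 113 members from the control mean of the stage ran from -0.01 to 0.11 in mutant hearts and from -0.05 to 0.03 in control hearts at E13.5. At E11.5 it ran from -0.05 to 0.11 in mutant hearts and from -0.04 to 0.05 in control hearts, so the hearts of both genotypes overlapped at each stage.

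**Figure D1:**
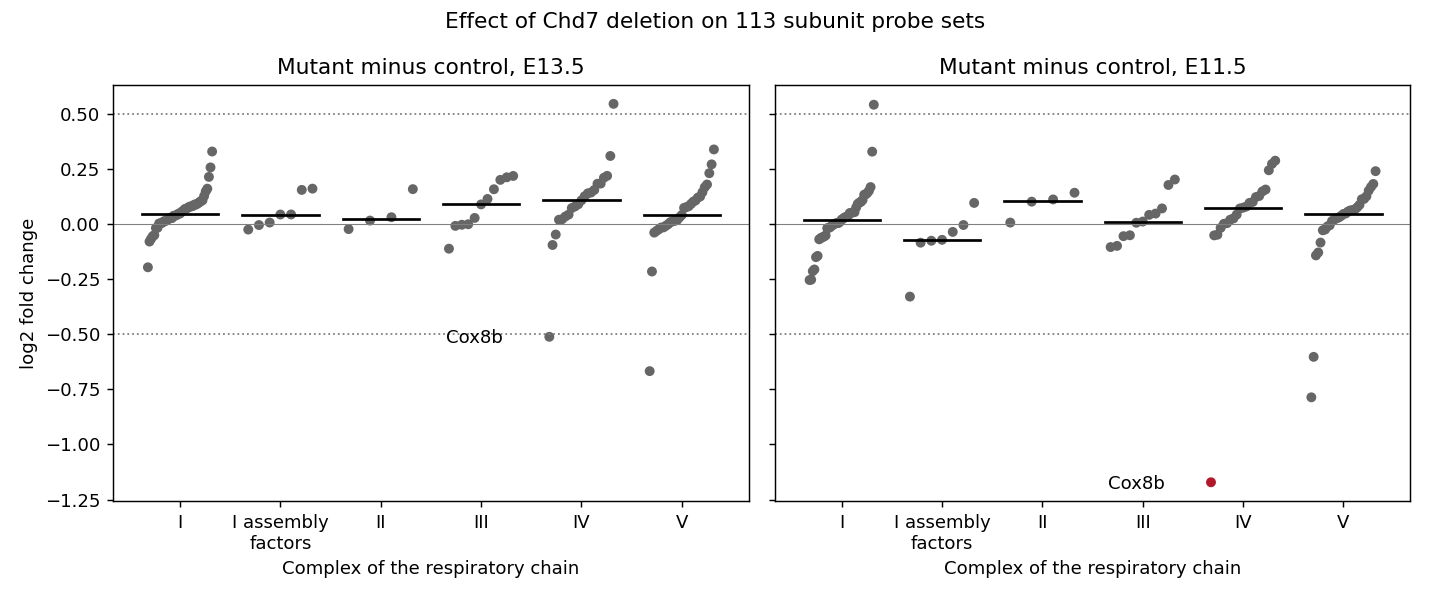
Log2 fold change of mutant over control hearts (y axis) for the 113 probe sets, 1 point each, sorted within each complex (x axis), at E13.5 on the left and E11.5 on the right, with 4 hearts per group. Black bars are medians, dotted lines the threshold of 0.5 in size, and the red point is Cox8b at E11.5, the 1 member called, at -1.17.

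Cox8b encodes the muscle isoform of subunit VIII of cytochrome c oxidase, the last enzyme of the chain. At E13.5 its log2 signal was 9.77, 10.28, 10.11 and 10.12 in mutant hearts, against 10.54, 10.37, 10.77 and 10.66 in control hearts. At E11.5 it was 8.81, 8.29, 9.29 and 7.98 in mutant hearts, against 9.74, 9.68, 9.90 and 9.74 in control hearts. Every mutant heart was below every control heart of its stage, and the mutant hearts at E11.5 were the most spread of the 4 groups, at 8.59 ± 0.58 against 9.76 ± 0.09 in control hearts (SD, n = 4 each).

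The log2 fold change of Cox8b was -0.51 (95% interval -0.97 to -0.06) at E13.5, with an adjusted p of 1, and -1.17 (95% interval -1.63 to -0.72) at E11.5, with an adjusted p of 0.0323. The study itself listed Cox8b as lower at E11.5 with the same value, from the same arrays, so the call is not independent of it. The effect at E13.5 less that at E11.5 was 0.66 ± 0.30 (SE), with an adjusted p of 1, so the stages were not shown to differ. The limma call at E11.5 did not survive separate fits of the 2 stages (adjusted p = 0.312), array weights (adjusted p = 0.0526) or the mean of the Y-linked genes as a covariate (log2 fold change -1.06, adjusted p = 0.101). It was also lost on leaving out mutant E11.5 replicate 2 or 4, any of the 4 control hearts at E11.5, or control E13.5 replicate 5, with adjusted p of 0.0531 to 0.0991 by limma. Without mutant E11.5 replicate 4, in which the hypoxia-induced genes stood high, the log2 fold change was -0.97.

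Among hearts with high Y-linked levels at E11.5, Cox8b stood at 8.29 and 9.29 in the 2 mutant hearts, against 9.68 to 9.90 in the 4 control hearts. At E13.5 the 1 such mutant heart had 10.12, against 10.77 and 10.66 in the control hearts, and among hearts with low levels the mutant hearts had 9.77 to 10.28, against 10.54 and 10.37 in control hearts. At E11.5 no control heart had low Y-linked levels, so the mutant hearts at 8.81 and 7.98 had no counterpart.

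The other muscle isoforms of complex IV were not called between mutant and control hearts. Cox6a2 had 11.31, 11.24, 11.43 and 11.46 in mutant hearts, against 11.25, 11.41, 11.29 and 11.68 in control hearts at E13.5, and 10.78, 10.57, 10.84 and 10.95 in mutant hearts, against 10.94, 10.89, 10.66 and 10.85 in control hearts at E11.5. Its log2 fold change was -0.05 at each stage, smaller than the spread between hearts, and turned positive on leaving out 1 heart. Cox7a1 differed by 0.21 at E13.5 and -0.05 at E11.5, with overlapping hearts and adjusted p of 1 and 0.943. The general isoform Cox8a differed by 0.08 at E13.5 and 0.04 at E11.5.

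**Figure D2:**
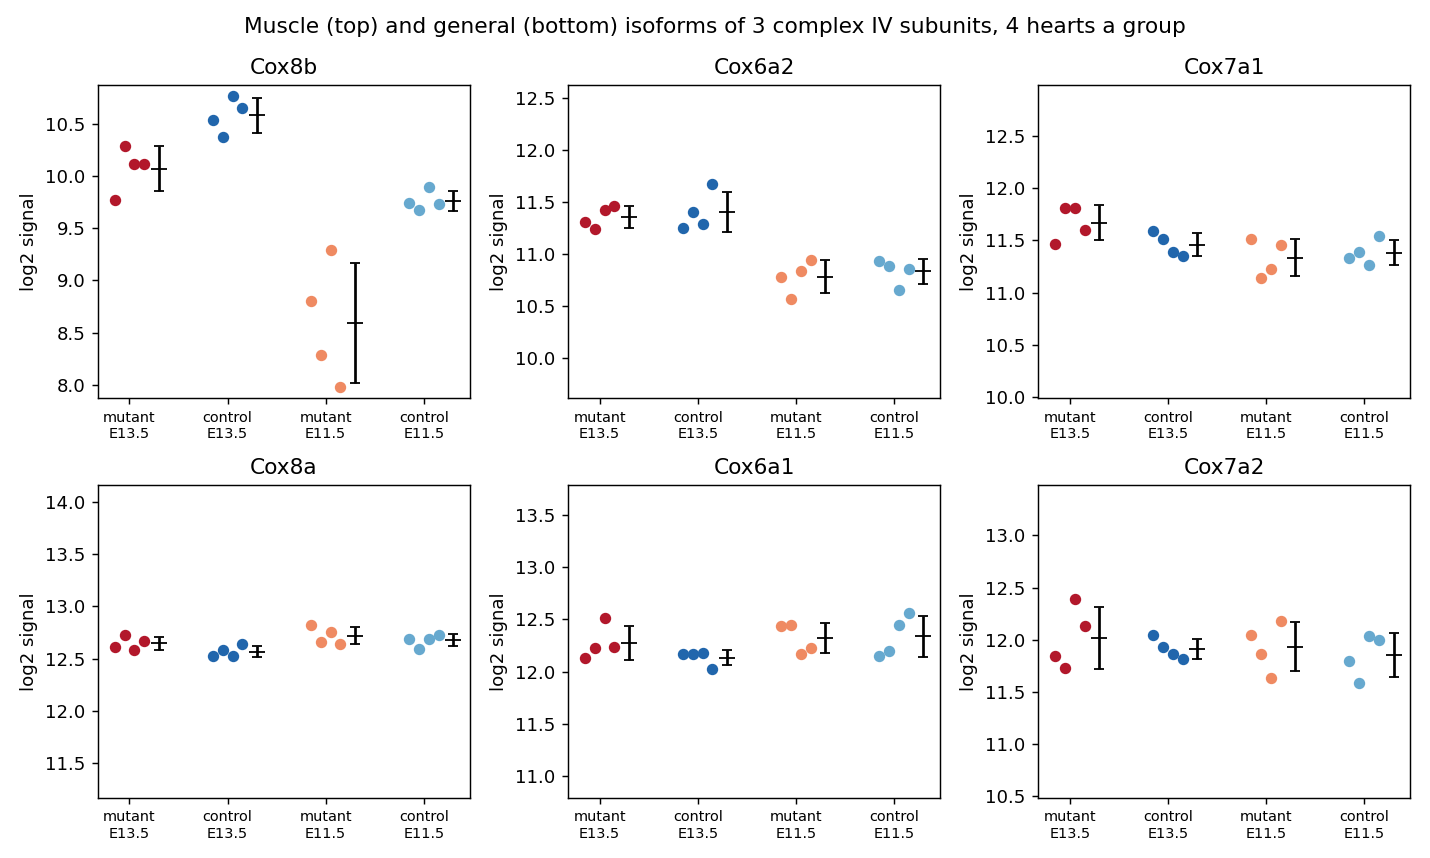
Log2 signal (y axis, each panel spanning 3 log2 units) of the muscle isoforms Cox8b, Cox6a2 and Cox7a1 above and the general isoforms Cox8a, Cox6a1 and Cox7a2 below, for mutant and control hearts at E13.5 and at E11.5 (x axis). Points are hearts, and bars give the mean ± SD of 4 hearts. Cox8b alone shows mutant hearts below control hearts without overlap at both stages.

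Of 10 genes of striated muscle energy supply outside the respiratory chain, 1 was called, Mb, which encodes the oxygen store myoglobin. At E11.5 0.3% of all probe sets naming 1 gene were called lower. The study itself listed Mb, like Cox8b, as lower at E11.5, and the 10 genes were chosen with earlier results of these data known. Mb had 10.63, 10.65, 10.50 and 10.87 in mutant hearts, against 11.29, 11.51, 11.72 and 11.90 in control hearts at E13.5. It had 9.17, 8.59, 9.20 and 8.55 in mutant hearts, against 10.04, 9.98, 10.27 and 10.01 in control hearts at E11.5. Like Cox8b, it was lower in every mutant heart than in every control heart of its stage, with a log2 fold change of -0.94 (limma, adjusted p = 0.0576) at E13.5 and -1.20 (adjusted p = 0.00593) at E11.5, and it was called at E11.5. The other 9 genes, among them Ckm and Fabp3 for muscle creatine kinase and the heart fatty acid-binding protein, were not called, with -0.11 and -0.03 at E13.5 and -0.15 and -0.09 at E11.5.

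Going by the brightest probe set of each gene, the remaining genes with the smallest p of each complex did not pass the test. In complex I these were Ndufb8 (0.33) and Ndufa7 (0.26) at E13.5 and Ndufb3 (0.54, limma, adjusted p = 0.296) and Ndufa2 (-0.25) at E11.5. Ndufa2, an accessory subunit, had 10.63 to 10.87 in mutant hearts and 10.90 to 11.07 in control hearts at E11.5, without overlap but by less than the threshold. Without the mutant E13.5 replicate 3 heart the value was 0.16 for Ndufb8 and 0.066 for Ndufa7. In complex II the log2 fold changes were 0.16 for Sdhd and 0.03 for Sdhb at E13.5, and 0.14 for Sdhc and 0.11 for Sdhb at E11.5.

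Complex III gave 0.21 for Uqcrq and 0.20 for Uqcr10 at E13.5, and 0.18 for Uqcrq and 0.20 for Uqcrfs1, the iron-sulphur protein, at E11.5. Without mutant E13.5 replicate 3 the E13.5 values were 0.093 for Uqcrq and 0.063 for Uqcr10. Complex IV gave, apart from Cox8b, 0.31 for Cox7a2l at E13.5. Complex V gave 0.11 for Atp5mpl and 0.10 for Atp5md at E13.5, and 0.24 for Atp5mpl and 0.15 for Atp5g1 at E11.5. Dimmer probe sets of complex V had larger values at E11.5 that were not called, -0.79 for Atp5h (adjusted p = 0.327 by limma, with its brightest probe set at -0.03) and -0.60 for Atp5g1 (adjusted p = 0.444). Among the assembly factors of complex I the largest of these was Ndufaf5, at -0.33 at E11.5, with an adjusted p of 0.545, which was -0.23 without mutant E11.5 replicate 3 and -0.041 without mutant E11.5 replicates 3 and 4 and control E13.5 replicate 1.

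Cox6b2, the testis isoform of subunit VIb, was the member with the largest positive value at E13.5. Its signal was 8.67, 8.66, 8.85 and 8.86 in mutant hearts, against 8.56, 8.19, 7.995 and 8.11 in control hearts, a log2 fold change of 0.55 with an adjusted p of 1. The hearts did not overlap, yet the difference did not pass the test across all probe sets.

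Ndufa4l2, a gene induced under low oxygen, and Cox4i2, an isoform of subunit IV with higher levels under low oxygen, were set apart in 1 heart. At E11.5 Ndufa4l2 had 7.61, 7.52, 7.73 and 8.85 in mutant hearts, against 7.57 to 7.62 in control hearts, and Cox4i2 had 8.41, 8.06, 8.68 and 9.70 in mutant hearts, against 8.47 to 8.66 in control hearts. In both genes the high value was that of replicate 4, the heart in which the median of the hypoxia-induced genes stood 1.01 higher. The smooth muscle markers also stood high in that heart, with a median of 0.59 over control. It was -0.10 to 0.09 in the other mutant hearts at E11.5. The log2 fold changes were 0.33 for Ndufa4l2 and 0.13 for Cox4i2 and were not called, and without that heart Ndufa4l2 stood at 0.021 and Cox4i2 at -0.20. The part of hypoxia or of cell composition in these values was not tested.

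Between E13.5 and E11.5, subunit genes differed in both directions. Array runs are not given in the sources used here, so an effect of run cannot be told apart from stage. Rose and fell below thus mean only higher or lower at E13.5. Because the spread of values within an array was wider at E13.5 (SD 2.38 to 2.42) than at E11.5 (2.18 to 2.26), a stage difference was called only where it passed the same thresholds in the same direction in the deposited values and after quantile normalisation of the 16 arrays. In mutant hearts 13 of 113 members were called higher at E13.5 than at E11.5 and 10 lower, where 10.6% and 7.46% of all probe sets naming 1 gene were called. In control hearts 14 were called higher and 10 lower, 12.4% and 8.85% of the members, where 10.2% and 7.48% of all probe sets naming 1 gene were called. The shares of members called were thus near those of the array as a whole.

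The direction of the members as a group rested on the scaling. In the deposited values alone 33 members were called higher and 10 lower in mutant hearts, and 26 higher and 10 lower in control hearts, with median log2 differences of 0.22 and 0.21. After quantile normalisation 13 were called higher and 14 lower in mutant hearts, and 14 higher and 14 lower in control hearts, and the medians were 0.06 and -0.01. Of the 113 members 94 lay in the brightest of 4 equal classes of the probe sets naming 1 gene, and over all 5410 probe sets of that class the median stage difference was 0.27 in mutant and 0.28 in control hearts as deposited, and 0.04 and 0.05 after quantile normalisation.

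Of the members called higher, 12 were called in both genotypes, 1 in mutant hearts alone and 2 in control hearts alone, where of all probe sets naming 1 gene 1631 were called higher in both, 656 in mutant hearts alone and 583 in control hearts alone. Of the members called lower, 9 were called in both, 1 in mutant hearts alone and 1 in control hearts alone, where of all probe sets naming 1 gene 956 were called lower in both, 659 in mutant hearts alone and 663 in control hearts alone. No probe set naming 1 gene was called in opposite directions. Whether the stage difference depended on genotype was tested directly, and no member and 0% of all probe sets naming 1 gene were called, with 4 members under an unadjusted p of 0.05.

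**Figure D3:**
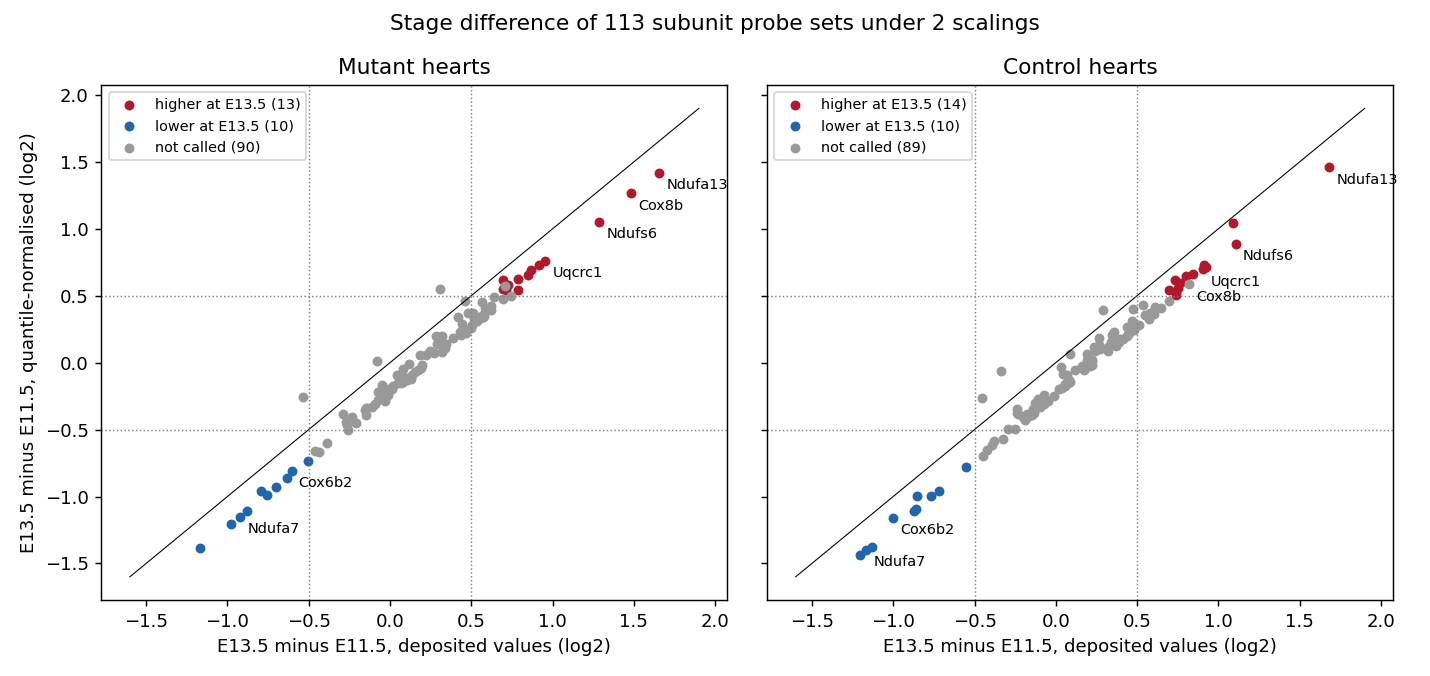
Log2 difference of E13.5 from E11.5 in the deposited values (x axis) and after quantile normalisation (y axis) for the 113 probe sets, in mutant hearts on the left and control hearts on the right, with 4 hearts at each stage. Nearly all points lie below the line of equality, dotted lines mark 0.5 in size, and red and blue points are those called higher and lower at E13.5 under both scalings.

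In complex I, Ndufa13, an accessory subunit also known as GRIM-19, had the largest difference of all members. It had 11.20, 11.51, 11.49 and 11.17 at E13.5, against 10.32, 9.45, 9.48 and 9.50 at E11.5 in mutant hearts, and 11.20, 11.22, 11.32 and 11.20 at E13.5, against 9.55, 9.24, 9.63 and 9.80 at E11.5 in control hearts. The log2 difference was 1.66 in mutant and 1.68 in control hearts, or 1.42 and 1.46 after quantile normalisation.

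Ndufs6, which carries zinc and is needed late in the assembly of complex I, rose by 1.29 in mutant and 1.11 in control hearts. Its signal was 10.34 to 10.51 at E13.5 against 8.71 to 9.34 at E11.5 in mutant hearts, and 10.34 to 10.48 against 9.11 to 9.57 in control hearts. Ndufs4, another accessory subunit, rose by 0.85 in mutant and 0.92 in control hearts. Ndufb3 was called in control hearts (1.09) and not in mutant hearts (0.57, or 0.46 after quantile normalisation), whose E11.5 values reached 7.91.

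Other complex I genes were lower at E13.5. Ndufa7 had 9.69, 9.31, 10.24 and 9.42 at E13.5, against 10.61, 10.38, 10.92 and 10.42 at E11.5 in mutant hearts, and 9.31 to 9.50 against 10.55 to 10.61 in control hearts, log2 differences of -0.92 and -1.17. Ndufab1, the mitochondrial acyl carrier protein, which also serves fatty acid synthesis, had 10.80 to 10.98 against 11.44 to 11.64 in mutant hearts and 10.72 to 10.95 against 11.49 to 11.59 in control hearts. These were log2 differences of -0.70 and -0.72 in its brighter probe set. Ndufa12 was called lower in mutant hearts alone, at -0.50, against -0.33 in control hearts. The assembly factors Ndufaf1 and Ndufaf2 went opposite ways, at 0.79 and -0.79 in mutant hearts and 0.74 and -0.86 in control hearts.

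The 4 genes of complex II were all brighter at E13.5 as deposited, by 0.27 to 0.57 in mutant hearts and 0.40 to 0.65 in control hearts. None was called, because after quantile normalisation the largest was 0.35 in mutant and 0.41 in control hearts, both for Sdhb, the iron-sulphur subunit. In complex III the core proteins Uqcrc1 and Uqcrc2 rose and no gene was called lower. Uqcrc1 had 12.46 to 12.59 at E13.5 against 11.47 to 11.64 at E11.5 in mutant hearts, and 12.34 to 12.50 against 11.34 to 11.63 in control hearts, log2 differences of 0.95 and 0.91. Uqcrc2 rose by 0.70 in mutant and 0.77 in control hearts, where Uqcrfs1 gave -0.21 and -0.16.

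In complex IV most genes were not called for stage. Cox8b rose by 1.48 in mutant hearts, and in control hearts its difference of 0.82 was not called, since its adjusted p after quantile normalisation was 0.0544. Cox5b, a zinc-binding subunit, was called higher in 1 of its 2 probe sets in mutant hearts (0.87 and 0.64) and in both in control hearts (0.74 and 0.70). Cox6b2 fell by 0.61 in mutant and by 1.00 in control hearts. Cox6a2 gave 0.57 in both genotypes, or 0.34 in mutant and 0.33 in control hearts after quantile normalisation, and was not called.

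Of the 29 probe sets of complex V, 5 were called higher and 4 lower in mutant hearts, where 10.6% and 7.46% of all probe sets naming 1 gene were called, and 5 higher and 5 lower in control hearts, where 10.2% and 7.48% were. Atp5c1, for the gamma subunit that turns within the catalytic head, had 12.81 to 12.90 at E13.5 against 11.98 to 12.15 at E11.5 in mutant hearts, and 12.75 to 12.93 against 11.93 to 12.04 in control hearts, log2 differences of 0.79 and 0.85. Atp5d, for the delta subunit of the same stalk, rose by 0.70 in mutant and 0.74 in control hearts. Atp5k, for the e subunit of the membrane part, had 9.34 to 9.70 at E13.5 against 9.96 to 10.43 at E11.5 in mutant hearts and 9.42 to 9.58 against 9.76 to 10.51 in control hearts, log2 differences of -0.63 and -0.77.

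For several genes the probe sets differed in direction. Of the 17 genes with more than 1, the sign of the stage difference varied between probe sets in 8 genes in mutant and 9 in control hearts. Atp5g2 had calls in both directions, with its brightest probe set at 0.71 in mutant and 0.75 in control hearts and the other two reaching -0.98 and -0.87. Ndufa11 gave -1.17 and 0.57 in mutant hearts and -1.20 and 0.51 in control hearts, of which the negative values were called. Atp5l, for the g subunit, ran over its 5 probe sets from -0.88 to 0.45 in mutant and from -1.13 to 0.32 in control hearts. At E13.5 a dimmer probe set of Atp5md, for a small membrane subunit, had the lowest log2 fold change of mutant over control hearts among all members, with 12.44, 10.98, 11.49 and 12.28 in mutant hearts against 12.26 to 12.59 in control hearts, a value of -0.67 that was not called, where its brightest probe set gave 0.10. The direction of these genes is uncertain here, and whether such probe sets also read related copies was not tested.

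The ratio of 2 isoforms was taken within each heart. Only its change between groups is read, since signals of different probe sets are not amounts. In 10 pairs over 4 comparisons, 40 in all, the groups were fully apart in 13, for which an exact two-sided permutation test gave 0.0286, the smallest p that 4 against 4 hearts allow. Adjusted over the 40 by Benjamini-Hochberg this became 0.088, so none passed 0.05. With that smallest p, far more of the 40 would have to be fully apart for any to pass. The failure therefore says little about the pairs. The Atp5g ratios also share genes and are not independent.

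Between genotypes the Cox8b/Cox8a ratio alone was fully apart. Its log2 value was lower in mutant than in control hearts by a difference of -0.59 at E13.5, with -2.84, -2.44, -2.47 and -2.54 in mutant hearts against -1.99, -2.21, -1.75 and -1.98 in control hearts. At E11.5 the difference was -1.21, with -4.01, -4.37, -3.46 and -4.66 in mutant hearts against -2.95, -2.92, -2.79 and -2.99 in control hearts. By stage the ratio was higher at E13.5 by 1.55 in mutant hearts and 0.93 in control hearts.

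By stage the Cox6a2/Cox6a1 ratio was higher at E13.5 by 0.62 in mutant and 0.78 in control hearts, and the groups of both stages were fully apart in each genotype, as they were for Cox8b/Cox8a. The Cox6b2/Cox6b1 ratio was lower, by a log2 difference of -1.05 in mutant and -1.44 in control hearts. Atp5g1 and Atp5g2 encode, with Atp5g3, the same mature c subunit of the ATP synthase ring. In their brightest probe sets they were higher relative to Atp5g3 at E13.5, by 0.68 and 0.67 in mutant hearts and 0.73 and 0.68 in control hearts, while Atp5g3 itself differed by 0.05 and 0.07 as deposited. Other probe sets of these genes differed, since the second of Atp5g1 gave 0.70 in mutant and -0.24 in control hearts by stage, neither called, and the dimmer ones of Atp5g2 were called lower. The Ndufa4l2/Ndufa4 ratio was fully apart in control hearts alone, at -0.38, and was -0.21 with an exact permutation p of 0.114 after quantile normalisation. That of Cox7b2/Cox7b also depended on the scaling, at -0.61 in mutant and -0.38 in control hearts as deposited and -0.21 and 0.018 after quantile normalisation. For Cox7a1/Cox7a2, Cox4i2/Cox4i1, Cox7b2/Cox7b and Atp5g1/Atp5g2 the groups overlapped in all 4 comparisons.

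**Figure D4:**
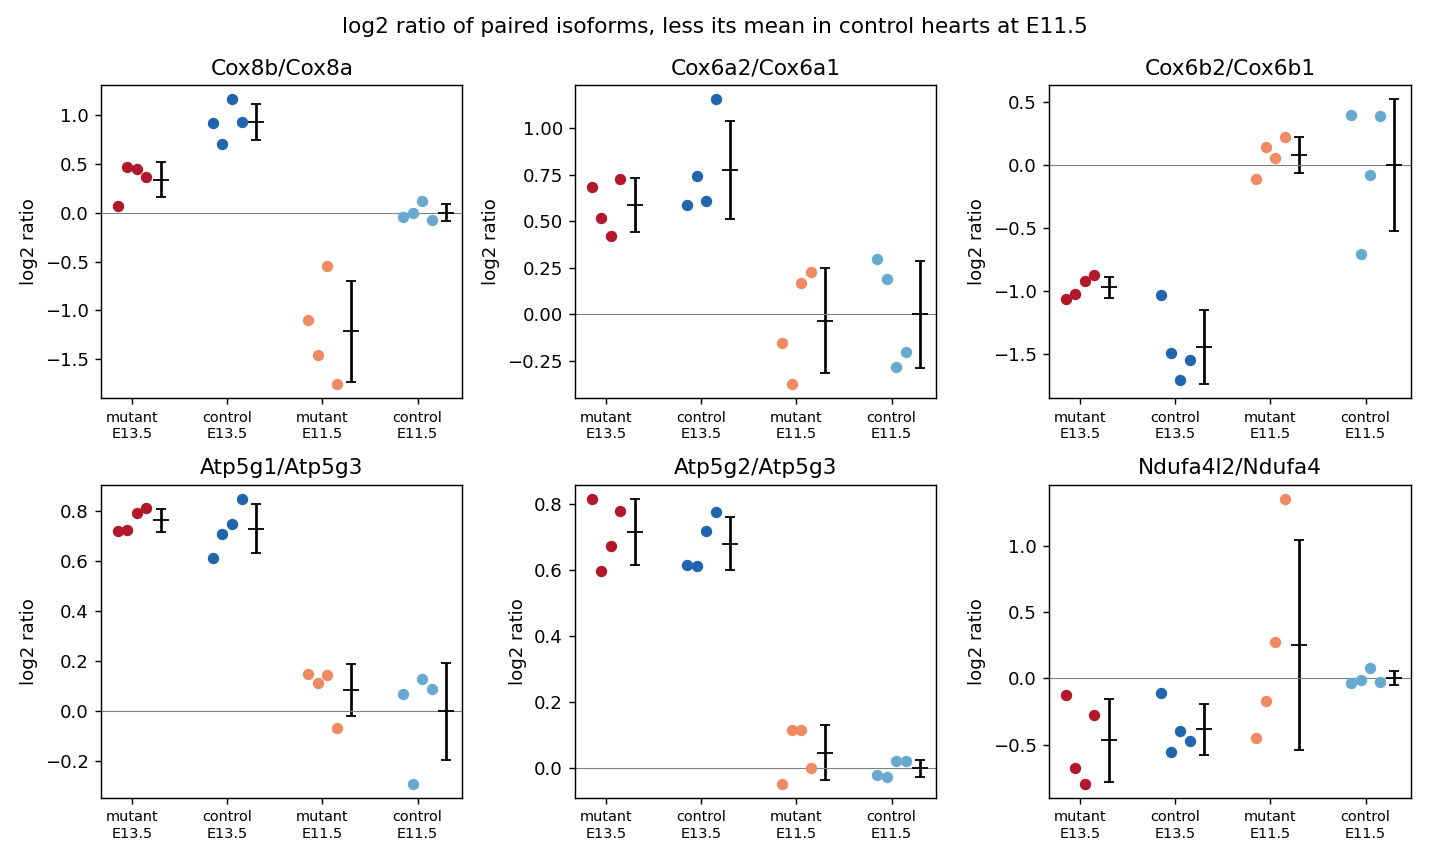
Log2 ratio of 6 isoform pairs within each heart, less the mean of the control hearts at E11.5 (y axis), for mutant and control hearts at E13.5 and at E11.5 (x axis). Points are hearts, and bars give the mean ± SD of 4 hearts. For Cox8b/Cox8a the hearts of the 2 genotypes do not overlap at either stage, which holds for none of the other 5 pairs. No pair passed 0.05 after adjustment, which the smallest p that 4 against 4 hearts allow made hard to reach.

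Related genes were counted in the same way, against the 10.6% higher and 7.46% lower in mutant hearts and 10.2% and 7.48% in control hearts over all probe sets naming 1 gene. Of 39 measured genes for assembly factors and other respiratory chain proteins, 11 were called higher and 2 lower at E13.5 in mutant hearts, and 9 higher and 1 lower in control hearts. Lrpprc, which stabilises mitochondrial messenger RNA, gave 0.83 in mutant and 0.92 in control hearts, and Surf1, an assembly factor of complex IV, gave 0.94 and 0.70. Of 17 citric acid cycle genes 4 were called higher and 0 lower in each genotype, namely Fh1, Idh3a, Idh3g and Mdh2, by 0.71 to 0.94 in mutant and 0.74 to 0.90 in control hearts. Of the muscle energy genes 5 were called higher and 0 lower in each genotype, led by Ckm, at 2.97 in mutant and 2.93 in control hearts. None of these genes but Mb was called between mutant and control hearts. There 0.0139% of all probe sets naming 1 gene were called higher and 0.0416% lower at E13.5, and 0.097% and 0.3% at E11.5.

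Of 18 regulators of mitochondrial biogenesis, 4 were called higher and 0 lower with stage in mutant hearts, and 1 higher and 1 lower in control hearts, against the same background shares of 10.6% and 7.46% in mutant and 10.2% and 7.48% in control hearts. Ppargc1a, a coactivator of mitochondrial genes, gave 0.75 in mutant hearts, where it was called, and 0.63 in control hearts, where the value after quantile normalisation was 0.40. Polg2, for the accessory subunit of the mitochondrial DNA polymerase, was called in both, at 0.94 in mutant and 1.01 in control hearts. Esrra, for oestrogen-related receptor alpha, gave -0.28 in mutant hearts and was called lower in control hearts, at -0.61. None of the 18 was called between mutant and control hearts at either stage. With 0.0139% and 0.0416% of all probe sets naming 1 gene called higher and lower at E13.5, and 0.097% and 0.3% at E11.5, this says little.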

How the data were processed

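The deposited values were log2 expression values made by the authors by robust multi-array average (RMA). The submitters' processing notes name RMA, affy and limma, and neither versions nor whether both stages were normalised together are given in the sources used here. Values ran from 2.74 to 14.56. Probe sets were named through the platform annotation: 21640 named 1 gene, 1321 several and 11799 none. Arrays carry no depth, and 4 hearts per group limit the precision.

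Members and gene lists were chosen with earlier results of these data known. All 34760 probe sets and 16 arrays entered 1 limma 3.58.1 fit (R 4.3.3) with a mean per group, empirical Bayes variances, 12 residual degrees of freedom and Benjamini-Hochberg adjustment. A call needed an adjusted p under 0.05 and a log2 fold change over 0.5 in size, and for stage also under quantile normalisation, or an adjusted p under 0.05 alone for the difference between stages. Isoform pairs went by the brightest probe set, with exact permutation tests (Python 3.11.15, scipy 1.17.1). Alternatives covered other normalisations, variance priors, array weights, filters, covariates, replicate numbers as a block, and leaving out hearts. The numbers did not pair hearts (correlations of deviations -0.06 to 0.01). The fit was tested on simulated data. Named genes were those called by genotype, the isoform pairs, the 2 smallest p per complex and stage, and for stage the 4 largest called per complex and those going the other way, with genes whose probe sets disagreed added after their values were seen. Motifs were searched in the RefSeq promoter table (GRCm38.p6). None of 13 mitochondrially encoded genes matched a symbol.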

Additional observations from a re-analysis of the deposited data

Results flagged for a closer look

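In 156 groups of 4 hearts, over 39 named members, 16 held a heart that stood far from the other 3 (gap over range above Dixon's 95% limit), where chance gives about 1 in 20. Of these, 4 were in mutant E11.5 replicate 4: Ndufa4l2 at 8.85 (7.52 to 7.73 in the other hearts of the group), Ndufb3 at 7.19 (7.87 to 7.91), Ndufs6 at 8.71 (9.25 to 9.34) and Uqcrc2 at 12.13 (12.28 to 12.31). In the other mutant E11.5 hearts, Ndufa13 stood at 10.32 in replicate 1 (9.45 to 9.50) and Ndufb8 at 10.89 in replicate 2 (11.24 to 11.30).

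In mutant E13.5 hearts, Ndufb8 stood at 11.85 (11.09 to 11.21) and Uqcrq at 11.65 (11.16 to 11.17), both in replicate 3, and Ndufb3 at 8.46 in replicate 2 (8.21 to 8.24). In control E13.5 hearts, Cox6a1 stood at 12.02 in replicate 5 (12.17 to 12.18), Atp5g1 at 13.04 in replicate 1 (13.20 in the others), Ndufa2 at 11.17 in replicate 2 (10.89 to 10.94), and Ndufa13 at 11.32 (11.20 to 11.22) and Sdhc at 12.09 (12.01 to 12.02) in replicate 4. In control E11.5 hearts, Ndufa4 stood at 10.72 in replicate 3 (10.86 to 10.87) and Ndufb3 at 7.625 in replicate 4 (6.99 to 7.08). Ndufb3 thus had a heart apart in 3 of its 4 groups.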

How the results depend on the processing

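The single member called at E11.5, Cox8b, kept its direction under all alternatives (log2 fold change -1.40 to -0.97 with 1 heart left out, adjusted p 0.00479 to 0.312 over all alternatives), but the count was 0 with each stage fitted alone, with array weights, with a Y-linked covariate and with the replicate numbers as a block (Cox8b adjusted p = 0.0943), and 0 to 1 with 1 heart left out. The block left 13 members higher and 10 lower with stage in mutant hearts and 13 and 9 in control hearts. No member was called at E13.5 or for the difference between stages under any alternative run. For stage in mutant hearts, the 13 members higher became 40 with arrays centred on their medians, 35 with no fold threshold and 33 in the deposited values alone, and 11 to 17 with 1 heart left out (9 to 12 lower). In control hearts the 14 higher became 30, 30 and 26 (12 to 15 with 1 heart left out), and the 10 lower became 16 with cyclic loess (10 to 11 with 1 heart left out). The Ndufa4l2/Ndufa4 ratio in control hearts was -0.21 after quantile normalisation.

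Of 79 named differences, 53 kept direction and side of the threshold under all alternatives. Of their 2101 recomputed values, 2035 kept both, 27 lost the call, 23 gained it and 16 changed sign. By stage, Ndufaf1 lost its call under 5 alternatives in control hearts and 3 in mutant hearts. The values changing sign were small or rested on 1 heart or probe set. At E13.5, Cox6a2 was 0.049 with the replicate block and -0.099 to 0.043 with 1 heart left out, and Sdhb -0.026 to 0.072. At E11.5, Cox6a2 ran from -0.11 to 0.021, Cox7a1 from -0.11 to 0.017 and Cox4i2 from -0.20 to 0.35. Without 3 hearts that stood apart (mutant E11.5 replicates 3 and 4 and control E13.5 replicate 1), Cox4i2 was -0.35 and Ndufa4l2 -0.033. With all probe sets of a gene summarised by their median, Atp5g1 at E11.5 was -0.23, and Atp5g2 for stage was -0.83 in mutant and -0.92 in control hearts. Atp5g3 for stage was -0.090 in mutant and -0.091 in control hearts after quantile normalisation, and -0.15 in both with cyclic loess. The causes were not tested. The array's floor limits dim members, and whole-heart RNA holds several cell types.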

Other observations

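Markers of other cell types in the hearts were counted in the same way, as a measure of composition. None of the markers measured for erythroid cells (4), endothelium (5), smooth muscle (4), epicardium (4), skeletal muscle (4), liver (4), neural crest and glia (2) or macrophages (3) was called between mutant and control hearts at either stage. Of all probe sets naming 1 gene, only 0.0139% were called higher and 0.0416% lower at E13.5, and 0.097% and 0.3% at E11.5, so this says little about composition. Among these cell types the largest list medians were 0.32 for the epicardial and 0.31 for the macrophage markers at E13.5, and 0.25 and 0.24 at E11.5. Single markers differed by more, as the epicardial Aldh1a2 did, by 0.69 at E13.5 and 0.77 at E11.5. The erythroid markers went both ways at E13.5, with Hbb-bh1 at 0.84 and Slc4a1 at -0.57. With stage, the macrophage genes Adgre1 and Csf1r and the epicardial gene Tbx18 were called higher at E13.5 in both genotypes, Myod1, a factor of skeletal muscle, lower in both, the smooth muscle gene Tagln lower in mutant hearts alone and the embryonic globin Hbb-bh1 lower in control hearts alone. None of the 21 hypoxia-induced genes was called between mutant and control hearts, though their median log2 fold change was 0.14 at E13.5 and 0.32 at E11.5. Aldoc, an aldolase, was called higher at E13.5 in both genotypes. The part of cell types and of hypoxia in the values of the subunit genes was not tested.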
